A study of Mus musculus with 7 samples.

Results

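The genes described here are the histone genes of mouse hematopoietic stem cells (HSCs), in 7 RNA-seq libraries made to compare HSCs with and without Dek, a nuclear chromatin-binding protein known as a histone chaperone. Members were taken by gene symbol, and 71 of the 33298 genes in the table matched. Of these, 61 carry names of the clustered replication-dependent genes (Hist1h to Hist4h). The other 10 are the variant genes H2afj, H2afv, H2afx, H2afy, H2afy2, H2afz, H3f3a, H3f3b, H1f0 and H1fx. The controls, Dek_fl (4 libraries), came from Dekfl/fl mice, and Dek_cKO (3 libraries) from Dekfl/fl mice that also carry Tie2-Cre. Both groups therefore share the floxed allele, and Tie2-Cre, which is driven by an endothelial promoter that is also active in blood progenitors, was present in Dek_cKO alone. Mice were 12 weeks old and untreated. Each library was made from about 800 bone marrow cells sorted as Lin-Sca-1+c-Kit+CD48-CD150+, called quiescent in the labels, with the Smart-Seq V4 low-input kit on polyA RNA. No label says that libraries came from separate animals, so the spread between libraries may be partly technical.

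Histone genes fall into a pair of classes with different mRNA ends. The clustered genes supply H1, H2A, H2B, H3 and H4 for newly replicated DNA; they lack introns for the most part, and their mRNA ends just after a stem-loop that the stem-loop binding protein Slbp holds, without a poly(A) tail. The variant genes are transcribed throughout the cell cycle and give ordinary polyadenylated mRNA: H2afz and H2afv encode H2A.Z, H2afy and H2afy2 macroH2A, H3f3a and H3f3b the same H3.3 protein, and H1f0 and H1fx linker histones made independently of replication. H2afx, the H2A.X of DNA damage foci, is known to make both kinds of mRNA end. Some clustered genes also make polyadenylated mRNA, above all outside S phase, and a library primed with oligo(dT) reads mainly such transcripts.

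The stem-loop was read in the annotated transcript of each gene (GENCODE M21, GRCm38), as a 16-base match to the consensus on the transcript strand. It was found in 41 of the 61 clustered genes and in 1 of the 10 variant genes, H2afx, against 12 of 16121 other protein-coding genes. Of the 20 clustered genes without a match, 11 have an annotated transcript whose last bases read as a stop codon, with the reading frame not checked. In these, sequence after the coding region may be missing from the annotation and so not searched. The following are shown because they belong to the most abundant clustered genes, to those discussed further down as higher in Dek_cKO, and to H2afx; capitals mark the stem-loop and 5 bases are given on each side.
Hist1h1c (chr13:23739512-23739527, + strand): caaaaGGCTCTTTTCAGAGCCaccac
Hist1h2ae (chr13:23570668-23570683, - strand): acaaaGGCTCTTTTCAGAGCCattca
Hist1h4i (chr13:22040966-22040981, - strand): ttaaaGGCCCTTTTTAGGGCCaccac
Hist1h3d (chr13:23576244-23576259, + strand): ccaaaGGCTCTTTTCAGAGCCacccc
Hist1h2be (chr13:23585531-23585546, - strand): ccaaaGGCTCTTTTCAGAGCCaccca
Hist4h4 (chr6:136803998-136804013, - strand): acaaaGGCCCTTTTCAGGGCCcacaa
H2afx (chr9:44335240-44335255, + strand): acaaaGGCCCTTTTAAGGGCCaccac
The coordinates are those of the 16 capital bases. Across the 42 genes there were 9 different stem-loops: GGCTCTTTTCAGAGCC in 21 of them and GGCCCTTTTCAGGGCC in 7.

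The annotated transcripts go on well past the stem-loop in many clustered genes. In 22 of the 41 the annotation runs more than 100 bases further, as for Hist1h1c (840 bases), Hist1h2ac (2010), Hist1h2be (1861), Hist4h4 (2445) and H2afx among the variants (822). A poly(A) signal, AATAAA or ATTAAA on the transcript strand, lay in the last 50 annotated bases of 14 of the 61 clustered genes and 8 of the 10 variant genes, and in 11947 of the 16121 other protein-coding genes. The 22 extended genes held 49.2% to 89.9% of the reads on clustered genes in each library (median 65.3%) and 36.1% to 83.6% of their summed FPKM. FPKM counts fragments relative to transcript length and library size, and is the unit of the authors' table. It can be compared between genes only as far as the annotated length matches the transcripts present, which was not tested. The median member's level did not set the extended genes apart as clearly: it was 3.91 FPKM for the extended genes, 2.62 FPKM for the 19 annotated to at most 100 bases past the stem-loop and 2.77 FPKM for the 20 without a match, as a mean over the 7 libraries. Hist1h2ap, whose annotation stops 3 bases after the stem-loop, was the third most abundant clustered gene.

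**Figure D1:**
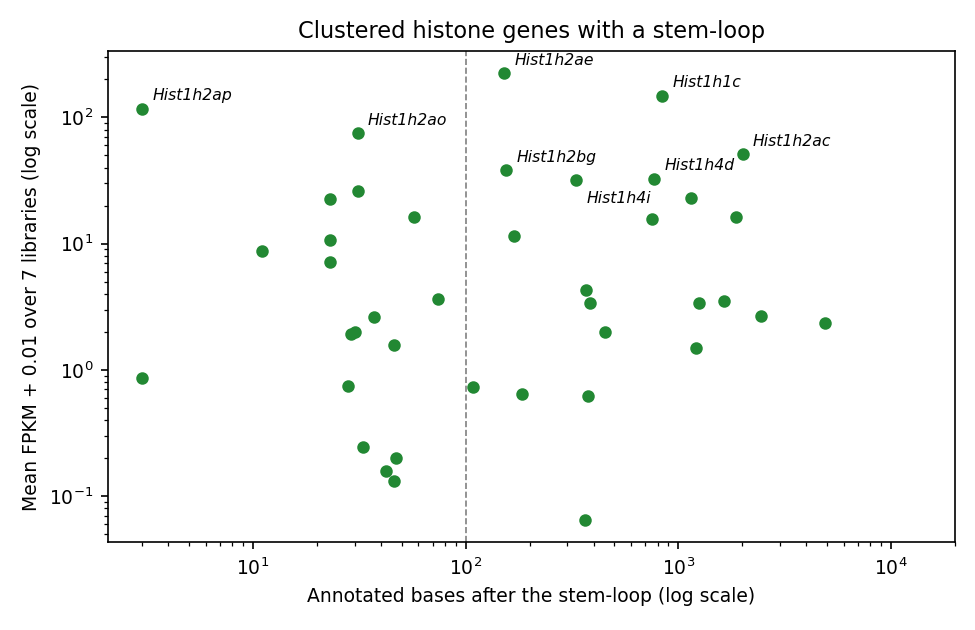
Mean FPKM over the 7 libraries (y axis, log scale, 0.01 added) of the 41 clustered genes with a stem-loop, against the annotated bases after the stem-loop (x axis, log scale); the dashed line is at 100 bases, and genes among the 10 of highest mean are named. Hist1h2ae (151 bases) and Hist1h1c (840 bases) lie at the top, and Hist1h2ap and Hist1h2ao reach high levels with 3 and 31 bases.

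The library totals behind the FPKM, as recovered from the values, were 4209152 to 26951515 reads. Whether these totals count only reads on genes is not known. The libraries held 8575 to 19950 genes above 0, and the lowest of these gene counts belongs to Dek_fl replicate 4. Dek was listed at 77.0, 118, 143 and 26.0 FPKM in control libraries and at 9.60, 8.40 and 12.7 FPKM in Dek_cKO, with no overlap (exact permutation test of the means, two-sided, p = 0.0571; the smallest possible over 35 splits was 0.0286). The third Dek_cKO value is 1 of 3 in the table given with 5 decimals and corresponds to 405.8 reads, whereas 23 of the 24 histone genes with enough reads for the check gave whole reads at the length of an annotated transcript; at 10 times that value (126.6 FPKM, an alternative chosen after seeing the data) p was 0.314. The 9 stem cell markers summed to 379 to 555 FPKM in control libraries and 390 to 955 FPKM in Dek_cKO. Slamf1, which encodes the sorted CD150, was at 0 to 1.80 FPKM in all 7 libraries, and Cd48, whose protein was gated out, at 4.10 to 206 FPKM. Granulocyte markers (5 genes, none at 0 in every library) summed to 128 to 1655 FPKM in control libraries and 103 to 7254 FPKM in Dek_cKO. The highest sum, in Dek_cKO replicate 3, came mainly from Elane (5393 FPKM) and Mpo (1542 FPKM). S100a9 was instead highest in Dek_fl replicate 4 (137 FPKM) and Ngp in Dek_fl replicate 2 (112 FPKM). S100a8 was at 240 and 245 FPKM in Dek_cKO replicates 2 and 3. The monocyte marker sum was also highest in Dek_cKO replicate 3 (267 FPKM, at most 28.0 FPKM elsewhere), through Ly6c2, with Csf1r and Ccr2 below 1 FPKM in all 7 libraries. Megakaryocyte markers summed to 1166 FPKM in Dek_fl replicate 4 and 59.9 to 279 FPKM elsewhere, with Pf4 at 1055 FPKM and Ppbp at 0 in that library. Of the T and NK cell markers Nkg7 was at 34.9 to 576 FPKM in Dek_fl and 451 to 1345 FPKM in Dek_cKO, while Cd3e, Cd3g and Trbc2 were at no more than 5.99 FPKM in any library. Their part in the histone values was not tested, and in these bulk samples fewer cells of a type and less RNA per cell cannot be told apart.

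Variant histones made up most of the histone mRNA captured in every library. Their summed level was 3757, 4061, 3824 and 3011 FPKM in Dek_fl replicates 1 to 4 and 3831, 3617 and 4544 FPKM in Dek_cKO replicates 1 to 3. The 61 clustered genes together came to 1122, 719, 751 and 891 FPKM in control libraries and 1468, 1027 and 1822 FPKM in Dek_cKO. The variant sum was thus 3.35, 5.65, 5.09 and 3.38 times the clustered sum in Dek_fl and 2.61, 3.52 and 2.49 times in Dek_cKO, and variants held at least 71.4% of histone FPKM. All 7 libraries had the variant class higher, with the ratio in Dek_cKO replicate 2 inside the Dek_fl range.

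H2afz and H3f3b stood at the head of the variants. H2afz, the main H2A.Z gene, was at 1369, 1193, 1359 and 944 FPKM in control libraries and 654, 1294 and 2038 FPKM in Dek_cKO, where the lowest and the highest library of the series both fell. H3f3b was at 1051, 1184, 1058 and 921 FPKM in control libraries and 1698, 1266 and 1156 FPKM in Dek_cKO, the last of these below the highest control. H2afz exceeded H3f3b in 6 of 7 libraries, and H3f3b exceeded the next gene, H2afy, in 7 of 7. H2afy, which encodes macroH2A1, stayed between 303 and 485 FPKM, while its paralog H2afy2 was above 0 in 5 libraries, with 11.0 FPKM in Dek_fl replicate 1 and at most 0.936 FPKM elsewhere. H2afv, the second H2A.Z gene, ranged from 183 to 558 FPKM and was below H2afy in 5 of 7 libraries. Of the H2afz transcript's 50-base words, 69.6% also occur in another annotated gene, so its level depends on how the authors' counting treated reads with several matches.

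The other variants varied more from library to library. H2afx was at 93.4, 668, 396 and 0.799 FPKM in control libraries and at 623, 4.25 and 319 FPKM in Dek_cKO, so that Dek_fl replicate 4 and Dek_cKO replicate 2, with 5 and 26 reads, were far below the other 5 libraries. H1f0 was at 71.6, 132, 52.8 and 0.967 FPKM in control libraries and 146, 31.3 and 70.7 FPKM in Dek_cKO, again lowest in Dek_fl replicate 4. H2afj, an H2A form known from senescent human cells, ran the other way in that library, with 60.9, 5.23, 66.4 and 153 FPKM in control libraries and 67.9, 45.2 and 1.09 FPKM in Dek_cKO. H1fx was at 9.45 to 73.2 FPKM in control libraries and 16.8 to 65.7 FPKM in Dek_cKO. H3f3a was at 157, 137, 177 and 93.6 FPKM in control libraries and 89.6, 78.6 and 188 FPKM in Dek_cKO. The protein is the same as from H3f3b, whose mRNA was 5.98 to 19.0 times as abundant; neighbours further down the order, such as H2afv over H2afx and H1f0 over H2afj, kept their order in 4 of 7 libraries each.

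**Figure D2:**
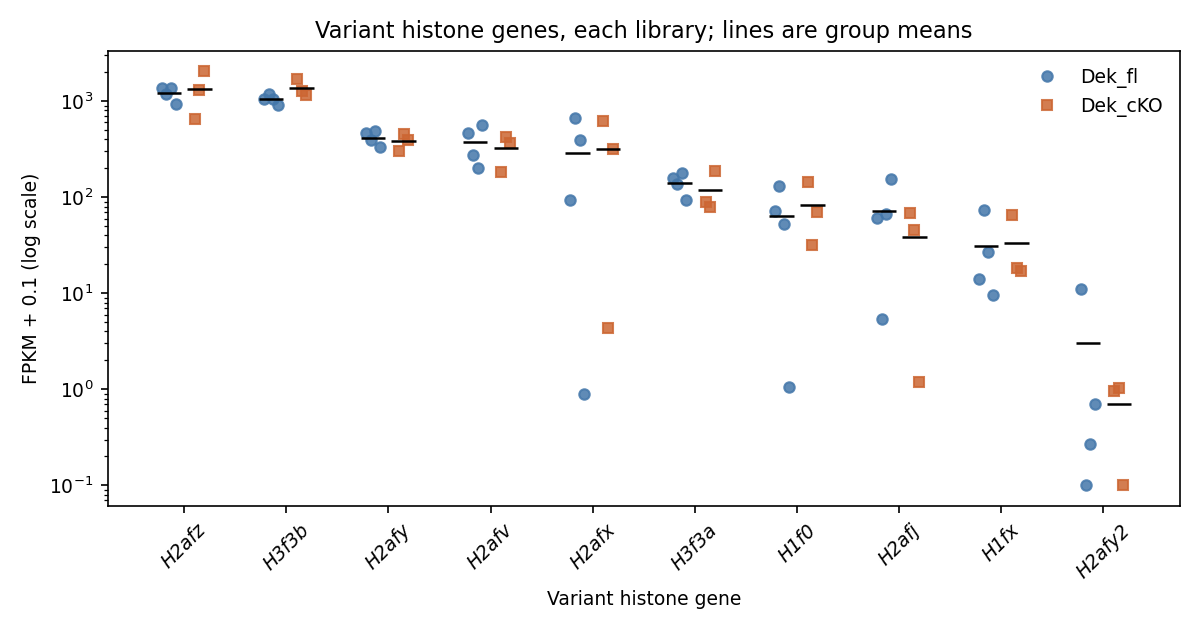
FPKM of the 10 variant histone genes in each library (y axis, log scale, 0.1 added; x axis, genes in order of their mean); circles are the 4 Dek_fl and squares the 3 Dek_cKO libraries, and lines are group means. H2afz, H3f3b, H2afy and H2afv stay between 183 and 2038 FPKM, whereas H2afx spans 0.799 to 668 FPKM.

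Among the clustered genes a few members carried most of the signal. By mean over the 7 libraries they were led by Hist1h2ae (224 FPKM), Hist1h1c (148), Hist1h2ap (117), Hist1h2bc (101), Hist1h2ao (74.7), Hist1h2ac (51.1), Hist1h1b (38.4), Hist1h2bg (38.0), Hist1h4d (32.6) and Hist1h4i (32.1), against a median over all 61 of 3.38 FPKM. Only 11 of the 61 were above 0 in all 7 libraries. The number above 0 was 40, 41, 39 and 19 in Dek_fl and 34, 35 and 37 in Dek_cKO, lowest in the library with the fewest genes of any kind. The leading gene differed between libraries: it was Hist1h2ae in Dek_fl replicates 1 and 3, Hist1h1c in Dek_fl replicate 2 and Dek_cKO replicates 1 and 2, Hist1h2bc in Dek_fl replicate 4 and Hist1h2ap in Dek_cKO replicate 3, with 17.1% to 39.2% of the clustered sum.

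Hist1h2ae, a core H2A gene, was at 440, 105, 148 and 77.3 FPKM in control libraries and 307, 98.9 and 393 FPKM in Dek_cKO. Hist1h1c, which encodes H1.2, a linker histone known to be made outside S phase too, was at 26.5, 124, 72.2 and 85.6 FPKM in control libraries and 524, 175 and 29.8 FPKM in Dek_cKO. The Dek_cKO libraries therefore held both the highest values of Hist1h1c and one close to the lowest. Hist1h2ap was at 12.8, 101, 111 and 2.75 FPKM in control libraries and 4.53, 4.22 and 583 FPKM in Dek_cKO, on 3522 reads in replicate 3 and on 13 and 9 in the other two. Hist1h1b, the replication-linked H1.5, was likewise highest in Dek_cKO replicate 3 (136 FPKM) and at 3.62 to 62.0 FPKM elsewhere. Hist1h2bc was at 45.8, 32.3, 117 and 273 FPKM in control libraries and 95.4, 72.6 and 74.2 FPKM in Dek_cKO, and Hist1h2ac at 0.703 to 92.6 and 15.7 to 107 FPKM. Hist1h2ap and Hist1h2ao share 93.1% and 93.5% of their 50-base words with another gene, and the 8 clustered H2A genes at 75% or more held 5.09% to 44.5% of the clustered FPKM, so the split among these near-identical copies is uncertain; the median over all clustered genes was 49.5%. Hist1h2aj and Hist1h2al are annotated as pseudogenes.

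**Figure D3:**
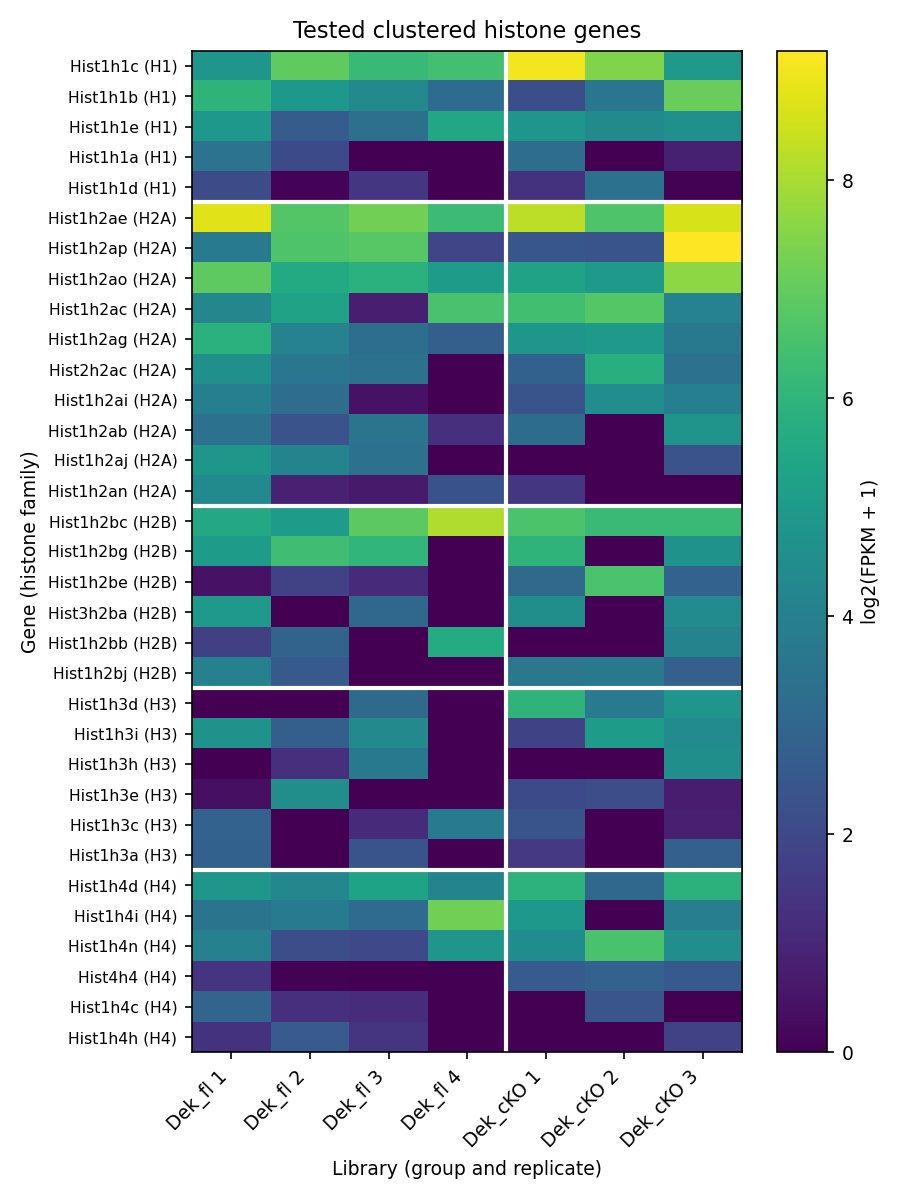
log2(FPKM + 1) of the 33 clustered genes that passed the expression filter (rows, by family and then by mean) in each of the 7 libraries (columns); the white vertical line parts Dek_fl from Dek_cKO. Hist1h2ae is bright in all 7 columns, from 77.3 to 440 FPKM, and Hist1h2ap only in some, and many genes are at 0 in Dek_fl replicate 4.

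Many H2A and H2B genes lie head to head, with a common stretch between them from which both are transcribed. There were 12 such divergent H2A and H2B pairs among the members, 175 to 305 bases apart, and the H2A partner had the higher mean in 8. The pair with the most mRNA, Hist1h2ae and Hist1h2bg, was uneven: Hist1h2bg was at 32.7, 81.8, 65.1 and 0 FPKM in control libraries and 61.7, 0 and 24.6 FPKM in Dek_cKO, below Hist1h2ae in 7 of 7 libraries. In Hist1h2ac and Hist1h2bc the H2B gene was higher in 5 of 7. Over the 84 combinations of pair and library, both partners were above 0 in 32, one of them in 35 and neither in 17. The 175 bases between Hist1h2ae and Hist1h2bg (RefSeq, GRCm38.p6, chr13:23571221-23571395, + strand, with Hist1h2ae to the left and Hist1h2bg to the right) are shown because this pair had the highest summed mean FPKM. Capitals mark CCAAT or its reverse complement, TATAAA and the octamer ATTTGCAT.
Hist1h2ae and Hist1h2bg: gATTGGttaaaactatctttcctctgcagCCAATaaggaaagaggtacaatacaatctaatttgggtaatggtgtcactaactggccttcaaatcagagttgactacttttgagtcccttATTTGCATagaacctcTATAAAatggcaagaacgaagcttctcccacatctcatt
Hist1h1c has no such partner, and the 150 bases before its start (chr13:23738657-23738806, + strand) are shown for the box AAACACA known from H1 promoters, in capitals with CCAAT.
Hist1h1c: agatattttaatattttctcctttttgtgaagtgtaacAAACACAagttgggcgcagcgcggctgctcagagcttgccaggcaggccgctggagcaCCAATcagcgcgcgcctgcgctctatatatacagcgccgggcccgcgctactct
In the 250 bases before the start, on either strand, CCAAT occurred in 14 of 14 clustered H2A, 14 of 14 H2B, 6 of 6 H1 and 6 of 7 H3 promoters. It occurred in 3 of 12 H4 promoters and 5 of 9 variant promoters, and in 34.5% of all 27025 promoters. TATAAA occurred in 26 of 53 clustered and 1 of 9 variant promoters, beside 3504 of all 27025. The octamer was in 7 of 14 H2A, 5 of 14 H2B and 1 of 9 variant promoters and in 0 of the H1, H3 and H4 promoters, beside 1.61% of all. AAACACA was in 5 of 6 H1, 2 of 14 H2A, 2 of 14 H2B and 1 of 9 variant promoters and in 0 of the H3 and H4 promoters, beside 6.22% of all. Paired genes share much of this window and are not separate observations; 62 of the 71 members had a promoter sequence.

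Between genotypes, no histone gene passed the test. Differences were fitted with limma on log2(FPKM + 1) for the 10260 genes that reached 1 FPKM in 3 libraries or more, among them 33 clustered and 9 variant histone genes. At a Benjamini-Hochberg adjusted p under 0.05 the fit called 0 of the 42 histone genes and 0 genes in all (0.0%), with a lowest adjusted p of 0.9999. At an unadjusted p under 0.05, 3 clustered genes were higher in Dek_cKO and none lower, where 2.12% of all genes were higher and 1.81% lower. The same 3 were the only tested histone genes whose groups did not overlap, all of them higher, where 2.86% of all genes were higher and 2.09% lower without overlap. The median log2 fold change was 0.33 over the clustered genes and -0.00 over the variants, beside 0.05 over all genes tested, and 21 of 33 clustered and 4 of 9 variant genes were above 0, beside 52.0% of all. Without Dek_fl replicate 4 the clustered median was 0.03, with 17 of 33 above 0, and the median of all genes -0.11. The within-group SD on the log2 scale had a median of 1.53 for clustered, 0.66 for variant and 1.51 for all genes.

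The 3 genes that did not overlap were near 0 in most control libraries. Hist1h3d, a core H3 gene, was listed at 0 in Dek_fl replicates 1, 2 and 4, at 7.93 FPKM in Dek_fl replicate 3 and at 61.5, 13.2 and 27.0 FPKM in Dek_cKO, on 457, 73 and 423 reads; its log2 fold change was 4.08 (SE 1.33, limma adjusted p = 0.9999, unadjusted p = 0.00611). Hist1h2be, a core H2B gene, was at 0.379, 2.55, 1.17 and 0 FPKM in control libraries and at 8.11, 94.6 and 6.40 FPKM in Dek_cKO, so that 1 library was far above the others (log2 fold change 3.37, SE 1.32, limma adjusted p = 0.9999). The annotated Hist1h2be gene runs from 23583670 to 23621124 on chromosome 13 and overlaps Hist1h1e on the same strand, and reads in the shared part cannot be told apart. Hist4h4, the lone Hist4 gene, was at 1.58, 0.0446, 0 and 0 FPKM in control libraries and at 5.40, 6.48 and 5.04 FPKM in Dek_cKO, on at most 19 and at least 82 reads (log2 fold change 2.37, SE 0.949, limma adjusted p = 0.9999). These 3 genes have 752, 1861 and 2445 annotated bases after the stem-loop. Each passed the filter through the 3 Dek_cKO libraries, all at 1 FPKM or more.

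None of the genes with most mRNA passed the test. For Hist1h2ae the log2 fold change was 0.59 (SE 0.677), for Hist1h1c 1.05 (SE 0.862), for Hist1h2ac 1.52 (SE 1.25), and for Hist1h2bc -0.06 (SE 0.786). Hist1h4i, at 149.7 FPKM in Dek_fl replicate 4 and 8.22 to 12.9 FPKM in the other controls, gave -1.49 (SE 1.42), against 28.9, 0 and 14.3 FPKM in Dek_cKO. Hist1h4d was at 16.7 to 38.9 FPKM in control libraries and 7.35 to 60.1 FPKM in Dek_cKO (0.33, SE 1.06). Among the variants the fold changes lay between -1.25 for H2afj (SE 1.29) and 1.14 for H1f0 (SE 1.18), and the best determined were H3f3b at 0.37 (SE 0.349), H2afz at -0.00 (SE 0.398) and H2afy at -0.13 (SE 0.452). For H2afx the SE was 2.65 around a value of 0.31.

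**Figure D4:**
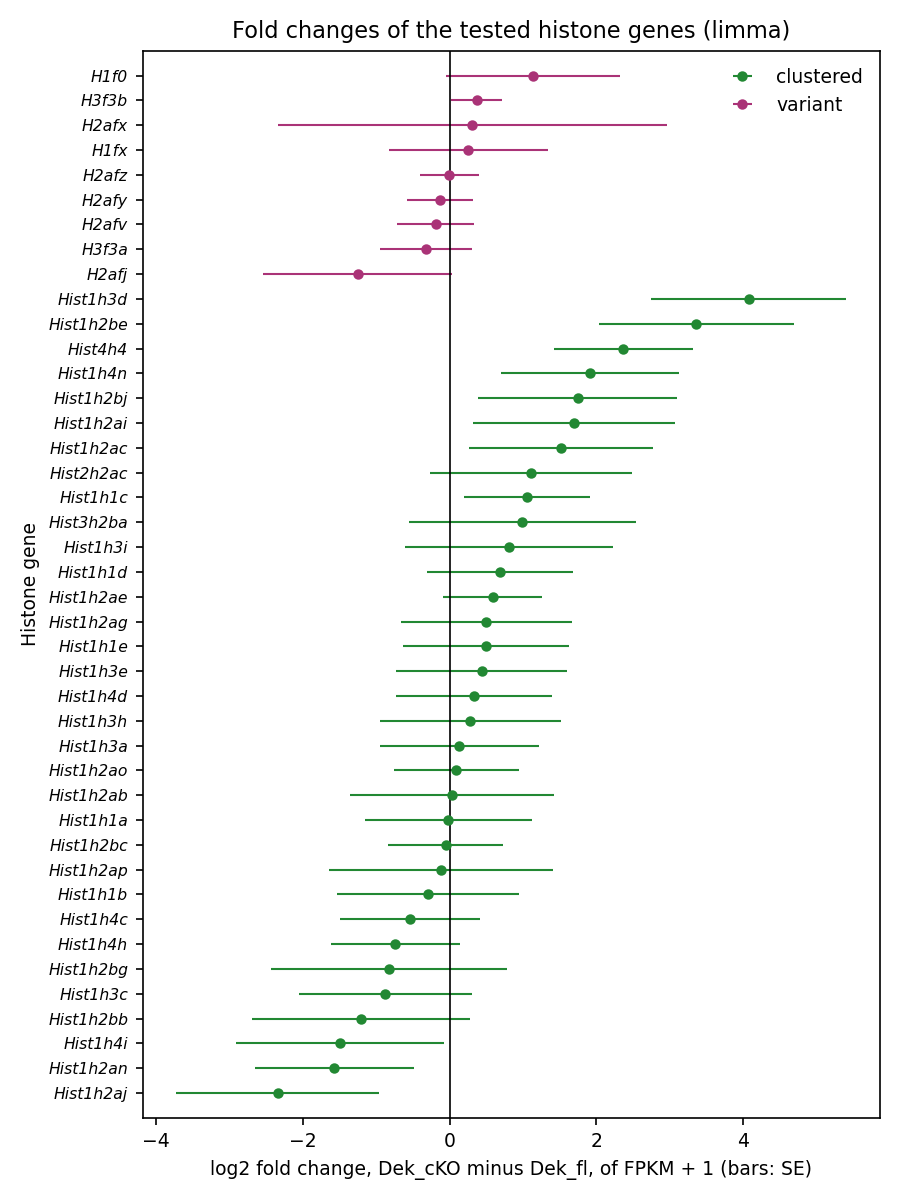
log2 fold change (x axis, Dek_cKO minus Dek_fl, on the FPKM + 1 scale) of the 42 tested histone genes, with SE bars from limma; the 9 variants are at the top and the 33 clustered genes below. Hist1h3d at 4.08, Hist1h2be at 3.37 and Hist4h4 at 2.37 stand furthest right, and H2afz, H2afy and H3f3b have the shortest bars.

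Summed by family, clustered H1 and H3 did not overlap between the groups. These sums were made over members chosen with earlier results known and are described without a test. Clustered H1 came to 131, 161, 102 and 139 FPKM in control libraries and 565, 221 and 190 FPKM in Dek_cKO, a ratio of means of 2.44, or 1.54 without Dek_cKO replicate 1. All Dek_cKO libraries were above all controls, but the groups overlapped without Hist1h1c (30.1 to 104 against 41.3 to 160 FPKM) and also when each library was rescaled to the same total FPKM (107 to 184 against 156 to 692). Clustered H3 came to 39.1, 29.8, 44.7 and 12.6 FPKM in control libraries and 74.6, 51.5 and 77.9 FPKM in Dek_cKO, a ratio of 2.15, and the groups overlapped without Hist1h3d (12.6 to 39.1 against 13.1 to 50.9 FPKM). The sums of H2A (217 to 746 against 401 to 1255 FPKM), H2B (132 to 329 against 157 to 229) and H4 (43.0 to 193 against 124 to 141) overlapped.

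For all clustered genes together, Dek_cKO was higher on average by FPKM, with overlapping groups. By recovered reads it was higher without overlap, but only with Hist1h2be, Hist1h3d and Hist4h4 counted. On the FPKM scale the log2 ratio of clustered to variant sums was 0.58 higher in Dek_cKO, with a pooled SD of 0.349 between libraries, and the groups overlapped. Counted as recovered reads, clustered genes took 86.8, 65.5, 62.9 and 104 reads per 100000 in Dek_fl and 181, 130 and 126 in Dek_cKO, with no overlap, while variants took 612 to 799 and 749 to 841. These reads include Hist1h2be, Hist1h3d and Hist4h4, the genes named above for their lack of overlap. In Dek_cKO replicate 2 they held 1048, 73 and 82 of the 5728 clustered reads. In Dek_fl replicate 4, at 104 reads per 100000, Hist1h2be, Hist1h3d and Hist4h4 each had 0 reads. Without these genes, Dek_cKO replicate 2 fell below Dek_fl replicate 4 in reads per 100000, and the groups overlapped. The H3.3 genes summed to 1208, 1321, 1235 and 1014 FPKM in control libraries and 1788, 1345 and 1344 FPKM in Dek_cKO, with no overlap on this scale; the groups overlapped with median-of-ratios scaling (942 to 1167 against 1075 to 1697) and at equal total FPKM (885 to 1508 against 1100 to 2188). H3.3 exceeded clustered H3 by 30.9, 44.3, 27.6 and 80.2 times in Dek_fl and by 17.3 to 26.1 times in Dek_cKO. These ratios did not overlap, but clustered H3 includes Hist1h3d, which was named for its lack of overlap. Without Hist1h3d the clustered H3 sums overlapped, at 12.6 to 39.1 FPKM in control libraries and 13.1 to 50.9 FPKM in Dek_cKO. H2A.Z exceeded clustered H2A by 1.66 to 6.91 times, with overlapping groups.

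**Figure D5:**
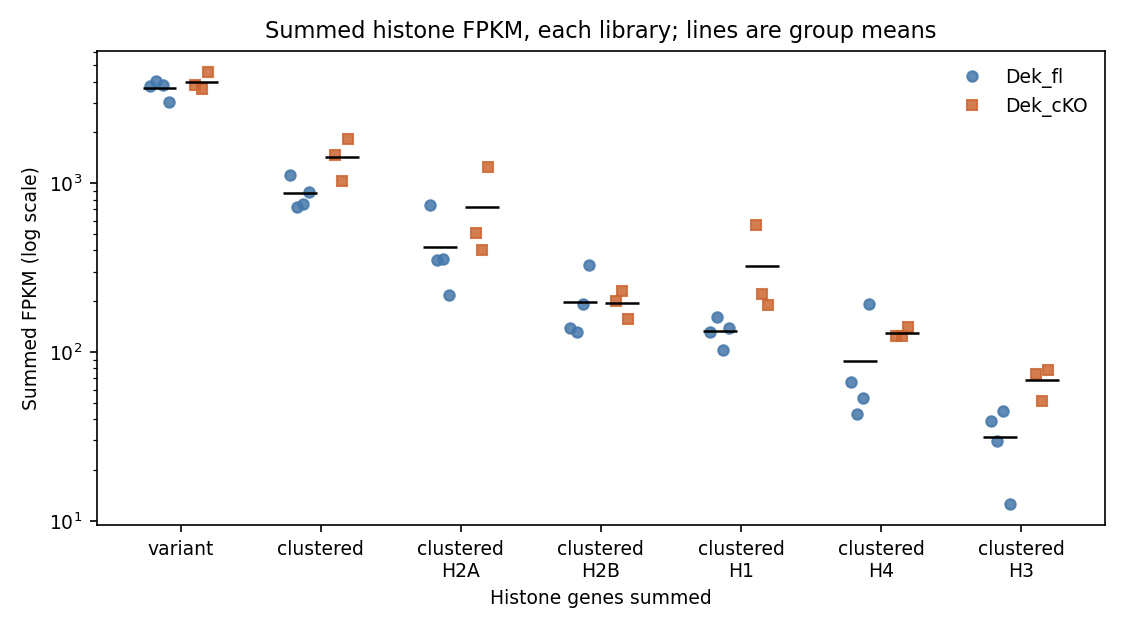
Summed FPKM (y axis, log scale) of the variant genes, of all clustered genes and of each clustered family in every library; circles are Dek_fl, squares Dek_cKO, and lines are group means. The variant sums lie between 3011 and 4544 FPKM and the clustered sums between 719 and 1822 FPKM, and the groups part for H1 and H3.

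Genes that act on histone mRNA and protein were described from 3 lists. Of 25 genes of histone mRNA 3' end processing and turnover, 24 were tested and 0 called; 3 did not overlap and were higher in Dek_cKO and 0 lower, where 2.86% and 2.09% of all genes did so, and the median log2 fold change was 0.22, beside 0.05 over all genes. They were Coil, the scaffold of Cajal bodies (0 to 4.35 against 4.40 to 66.1 FPKM; log2 fold change 2.92, SE 1.32, limma adjusted p = 0.9999), Casp8ap2 (1.26 to 13.6 against 18.4 to 35.2 FPKM) and Sympk (0.596 to 3.70 against 4.11 to 7.67 FPKM); Casp8ap2 and Sympk are named after their values were seen. Slbp, the stem-loop binding protein, was at 85.5, 166, 175 and 54.3 FPKM in control libraries and 89.4, 55.6 and 150 FPKM in Dek_cKO, with overlap. Cstf2, a cleavage factor that also acts on histone pre-mRNA, gave -2.51 (SE 1.31), with Dek_fl replicate 1 at 0.822 FPKM, the other controls at 11.0 to 27.4 FPKM and Dek_cKO at 0 to 1.496 FPKM.

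Of 38 histone chaperones and exchange factors, 38 were tested and 0 called, with a median log2 fold change of -0.20; without overlap, 1 was higher in Dek_cKO (Znhit1, 7.14 to 49.8 against 50.4 to 70.0 FPKM) and 2 were lower (Ruvbl1 and Ipo7, the latter at 12.1 to 60.1 against 1.91 to 10.2 FPKM). Znhit1 and Ipo7 are named after their values were seen, and these counts are close to the 2.86% and 2.09% of all genes. Ruvbl1, an ATPase of the complexes that exchange H2A.Z, was at 253, 145, 262 and 140 FPKM in control libraries and 110, 34.2 and 99.3 FPKM in Dek_cKO (log2 fold change -1.40, SE 0.648, limma adjusted p = 0.9999). Chaf1a, the large subunit of the replication-coupled H3 and H4 chaperone CAF-1, gave 2.16 (SE 1.31), on 0 to 8.55 and 2.64 to 26.9 FPKM. Set, an acidic histone chaperone, was at 237 to 553 and 248 to 306 FPKM, and Npm1 at 524 to 822 and 357 to 1084 FPKM.

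Of 38 S phase and proliferation genes, 36 were tested and 0 called, and 0 were without overlap; the median log2 fold change was 0.28, with 22 of 36 above 0 beside 52.0% of all genes. Pcna, the replication clamp, was at 266, 259, 281 and 67.0 FPKM in control libraries and 359, 201 and 405 FPKM in Dek_cKO, and Mki67 at 6.88 to 31.5 and 13.6 to 28.9 FPKM. Both overlapped. Rrm2, the regulated subunit of ribonucleotide reductase, gave 3.78 (SE 1.29), with 0.383, 1.96, 64.6 and 5.75 FPKM in control libraries and 109, 117 and 55.1 FPKM in Dek_cKO, though its values do not all come to whole reads. Ccne2, a cyclin of S phase entry, gave -2.75 (SE 1.35), on 3.97 to 38.3 and 0 to 8.09 FPKM.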

How the data were processed

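The authors deposited 1 table of FPKM per gene and library, used here as given. Per the submitters' processing notes the tools were Bowtie 0.12.9, Cufflinks 2.1.1 and HTSeq with mouse build mm10; which role each had, the annotation, the strand setting and the handling of multiply matching reads are not given in these sources. The design text names triplicates, whereas the labels list 4 controls. Reads were recovered as FPKM times length times a library total, with an annotated transcript length or, where none gave whole reads, a fitted one (H1f0 among the 24 histone genes assessed): of 7017 genes with at least 30 reads in 5 libraries, 42 had values away from a whole number by over 0.003 reads beyond the rounding of the table, none of them a histone. Genes were tested with limma 3.58.1 (R 4.3.3, empirical Bayes with trend and robust) on log2(FPKM + 1), 7 libraries in 2 groups, with Benjamini-Hochberg adjustment. The fit was also run on simulated, normally distributed values. That outcome is not given here, and nothing is concluded from it. Fold changes of low genes are understated on this scale. The reads have no molecular identifiers, and what limits the precision was not tested.

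Stem-loops, 50-base words shared between genes, and gene overlaps came from GENCODE M21, and promoters from RefSeq (GRCm38.p6). Named genes were Dek, variants at 1 FPKM or more, the 10 clustered genes of highest mean, members whose groups did not overlap at a mean of at least 2 FPKM, and 2 genes of smallest p per list. The members and lists were chosen with earlier results of these data known. Alternatives covered scaling, pseudocount, filter, replicate block, recovered reads and leaving out each library.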

Additional observations from a re-analysis of the deposited data

Results flagged for a closer look

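Among 37 sets of 4 control values examined (those of the genes named by the rule, Dek included, and of the class and family sums), 7 held 1 library far from the other 3, by a gap of more than 0.829 of the range. Chance gives about 1 in 20 for independent, normally distributed values. The count cannot be set against that rate, because many of these FPKM are at or near 0 and Hist1h4i is part of the H4 sum. Hist1h3d, Hist4h4, Chaf1a and Rrm2 were also named from these same values. In Dek_fl replicate 4, Hist1h4i was at 149.7 FPKM, where the next highest control was at 12.9 FPKM, and the summed clustered H4 was at 193 FPKM, where the next was at 66.8 FPKM. In Dek_fl replicate 3, Hist1h3d was at 7.93 FPKM with the other 3 controls at 0, Chaf1a at 8.55 FPKM with the next at 1.16 FPKM, and Rrm2 at 64.6 FPKM with the next at 5.75 FPKM. In Dek_fl replicate 1, H2afy2 was at 11.0 FPKM with the next at 0.610 FPKM, and Hist4h4 at 1.58 FPKM with the next at 0.0446 FPKM. Whether these are properties of the cells or of the libraries was not tested.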

How the results depend on the processing

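The count of called genes was 0, over all genes and over histone genes, in the main fit and under every alternative run. The lowest adjusted p over all genes was 0.133 and over histone genes 0.406, both with voom on recovered reads; between 288 and 567 genes, and 2 to 4 histone genes, had an unadjusted p under 0.05. The log2 ratio of clustered to variant sums was 0.44 to 0.74 when each library was left out, 0.42 with H2afx among the clustered genes, 0.75 on recovered reads, and 1.09 (pooled SD 1.10) from class medians in place of sums. For Dek the difference kept its sign throughout, which leaving out a library could not change because the groups did not overlap.

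Of 230 values of the 29 named genes under other settings, 15 turned sign, each on a value that was within its error of 0 in the main fit. Rescaling to the same total gave 0.064 for H2afz and 0.013 for Hist1h2bc, and median-of-ratios scaling 0.019 for H2afz. Voom gave 0.12 for H2afz, 0.22 for H2afv, -0.47 for H2afx, -0.30 for H1fx, 0.021 for Hist1h2bc and 0.14 for Hist1h1b. Same-numbered libraries did not deviate together (correlations of -0.03, -0.07 and 0.04). The replicate block called 0 genes and gave 0.035 for H2afv, -1.53 for H2afx, -0.20 for H1f0, -0.14 for H1fx, 0.51 for Hist1h2bc and -0.17 for Hist1h2ao; its estimates equal those without Dek_fl replicate 4. Leaving out 1 library turned 28 of 203 values, in 13 genes. The ranges were -0.39 to 0.43 for H2afz, -0.26 to 0.028 for H2afy, -0.45 to 0.17 for H2afv, -1.53 to 2.45 for H2afx, -0.20 to 1.82 for H1f0, -2.20 to 0.33 for H2afj, -0.36 to 0.80 for H1fx, -2.37 to 1.03 for Hist1h2ap, -0.50 to 0.51 for Hist1h2bc, -0.74 to 0.58 for Hist1h2ao, -1.69 to 0.75 for Hist1h1b, -2.28 to 0.95 for Hist1h2bg and -0.15 to 1.28 for Hist1h4d. Hist1h3d (3.53 to 4.87), Hist1h2be (2.19 to 4.03) and Hist4h4 (2.25 to 2.70) stayed above 0. This sign was fixed in advance, because these genes were named for groups that do not overlap, and is no sign of stability. They were at or near 0 in controls, where the size of a fold change depends on the pseudocount. The cause of these changes was not tested.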
